A study of Homo sapiens with 3 samples.

Results

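The genes described here are the 10 that encode the vascular endothelial growth factor (VEGF) ligands VEGFA, PGF, VEGFB, VEGFC and VEGFD, the receptor tyrosine kinases KDR, FLT1 and FLT4, and the co-receptors NRP1 and NRP2. They were chosen by name as the components of 1 signalling family and not by a measured value. Earlier results of these data were known when they were chosen. They are 10 of the 19699 genes matched on the arrays. They were read by 14 of the 25705 gene-matched probes. The study asked how inhibitors of protein phosphatase 2A (PP2A), an enzyme that takes phosphate groups off proteins, act on the expression of angiogenesis genes in pancreatic cancer cells. All RNA came from PANC-1, an established human pancreatic carcinoma line of epithelial origin, kept in DMEM with fetal calf serum. The groups were untreated control cells, cells given 20 µM cantharidin and cells given 20 µM okadaic acid (OA), as the sample labels state the doses, with treatment for 24 h. The protocol text can be read as giving that dose for cantharidin only, so the OA dose, and with it every comparison between the agents, is less certain. Each group had 1 array and both agents were compared with the same control array, so nothing below was checked by a replicate and no test was made.

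VEGF ligands are secreted dimers that bind receptors on endothelial cells, the cells that line blood vessels, and are best known for driving vessel growth, vessel leakage and lymphatic growth. KDR (VEGFR2) carries most of the mitogenic and permeability signal of VEGFA, FLT1 (VEGFR1) binds VEGFA, VEGFB and PGF, and FLT4 (VEGFR3) binds VEGFC and VEGFD and serves lymphatic endothelium. Neuropilins lack kinase activity, hold VEGF ligands for the kinase receptors and also bind class 3 semaphorins, which act through plexins. Carcinoma cells secrete VEGF ligands and commonly express neuropilins.

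Both agents changed the family in the same way for most ligands and for neuropilins, and in opposite ways for KDR. Under cantharidin, 9 of the 10 genes could be compared with control, of which 4 (VEGFA, PGF, VEGFD and KDR) were past 1.5-fold higher, 4 (VEGFB, VEGFC, NRP1 and NRP2) past 1.5-fold lower and FLT4 was under 1.5-fold. Over all 16644 genes compared, 26.3% were higher and 34% lower by that measure, 60.4% in either direction. Under OA, 8 of the 10 could be compared, of which VEGFA and PGF were higher, 5 (VEGFB, VEGFC, KDR, NRP1 and NRP2) were lower and FLT4 was under 1.5-fold. Over all 16166 genes compared with OA, 28% were higher and 27% lower, 55% in either direction. Of the OA calls over all genes 51% were higher, and 63.7% without scaling between arrays. The median log2 difference of the members was -0.09 under cantharidin and -0.83 under OA, beside -0.17 and 0.02 over all genes. With calls at 1.5-fold so common on these arrays, the number of members past it is not in itself a result about the family, and the values below describe size and direction.

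Signals below are processed intensities of single spots, in the order control, cantharidin and OA, and each fold is taken after every signal is divided by the 75th percentile of its array (784, 713 and 936). The numbers of probes well above background were 24768, 25103 and 23071 of 34041. Each member probe was a single spot, so the error given with a log2 difference is the spot noise, the SD between repeat spots of the transcript probes that have 10 spots, at like brightness on the same arrays. It leaves out the variation between cultures. In a bulk sample a lower signal from fewer expressing cells cannot be told apart from less RNA per cell. The 3 arrays lay at 3 positions of 1 slide and were read in 1 scan, so position and group cannot be told apart.

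**Figure D1:**
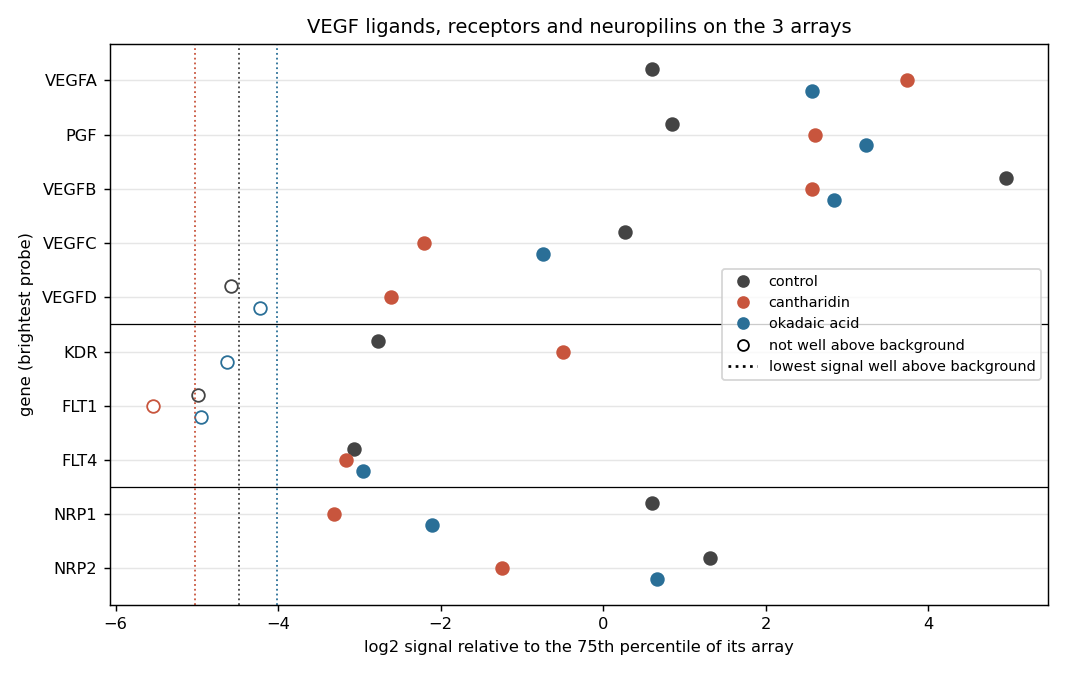
Signal of the brightest probe of each gene on the control, cantharidin and OA arrays, as log2 relative to the 75th percentile of the array, with open circles for signals not well above background and dotted lines for the lowest signal that was well above background on each array. VEGFA and PGF lay to the right of control under both agents, VEGFB, VEGFC, NRP1 and NRP2 to the left, and KDR lay on either side of it. Positions are compared within a gene and not between genes.

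Among the ligands, VEGFA and PGF were raised by both agents. On the brighter VEGFA probe cantharidin raised VEGFA more and OA raised PGF more, while on the second probe PGF rose more with both. VEGFA, the main angiogenic ligand, had intensities of 1193, 9534 and 5564 on its brighter probe. This was 8.79-fold higher under cantharidin (log2 difference 3.14, spot noise SD 0.098) and 3.91-fold higher under OA (1.97, SD 0.085). Probes were ranked by mean log2 signal over all 3 arrays, treated ones included, and in control the second VEGFA probe was the brighter. This second probe read 1824, 2897 and 4082, a rise of 1.75-fold under cantharidin and of 1.87-fold under OA. Both probes thus rose past 1.5-fold under both agents, but the gap between agents rested on the brighter probe, which was 2.25-fold lower under OA than under cantharidin, while the second probe differed by 1.07-fold. The median over both probes gave a log2 difference between the agents of -0.53, under 1.5-fold, and of 1.97 for cantharidin against control.

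PGF encodes placental growth factor, which binds FLT1 and not KDR. Its only probe had intensities of 1410, 4331 and 8802, the OA array being the brightest. PGF was 3.38-fold higher under cantharidin (log2 difference 1.76, SD 0.098) and 5.23-fold higher under OA (2.39, SD 0.085). OA exceeded cantharidin by 1.55-fold, just past the threshold, and by a log2 difference of 0.48, under it, when arrays were scaled to their medians. The study picked VEGFA and PGF from these same arrays, so their direction here is not independent evidence of it. The study also measured VEGFA and PGF by real-time PCR and as proteins, which these arrays do not cover. Of the genes with a value, 2.47% were at least as far above control as the brighter VEGFA probe under cantharidin, and 6.91% under OA. For the second VEGFA probe these shares were 22.2% and 20.5%. For PGF they were 9.22% and 4.48%.

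VEGFB, a ligand of FLT1 with little angiogenic activity of its own, was lower under both agents. Its intensities were 24319, 4237 and 6716. VEGFB fell by 2.38 on the log2 scale under cantharidin, or 5.21-fold (SD 0.099), and by 2.11 under OA, or 4.32-fold (SD 0.086). Between the agents the log2 difference was 0.27, which did not reach 1.5-fold except without any scaling between arrays (0.66).

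The lymphangiogenic ligands moved apart under cantharidin. VEGFC, the main ligand of FLT4, had intensities of 945, 155 and 560, both treated arrays being dimmer than control. VEGFC was 5.55-fold lower under cantharidin (log2 difference -2.47, SD 0.22) and 2.01-fold lower under OA (-1.01, SD 0.11), so that OA stood 2.76-fold above cantharidin. VEGFD, the other FLT4 ligand, read 32.8, 116 and 50.2, and it was well above background with cantharidin only. VEGFD was therefore at least 3.65-fold higher with cantharidin than in control and at least 2.63-fold lower with OA than with cantharidin. No fold is given for VEGFD between OA and control, where neither array measured it, and with the normexp correction its log2 difference under cantharidin was 0.90.

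The bases upstream of the transcription start are shown for 4 members with contrasting responses: PGF (higher with both agents), VEGFB (lower with both), VEGFD (measured with cantharidin alone) and KDR (opposite between agents). RefSeq windows of GRCh38.p14 were found for 7 of the 10 members, 8 windows in all, and not for VEGFA, FLT4 and NRP1. Each sequence is the 250 bases that precede the start, 5′ to 3′ on the gene's own strand. Capitals mark matches, on either strand and with overlaps allowed, to the GC box GGGCGG, the hypoxia core ACGTG, AP-1 TGANTCA, CRE TGACGTCA, the EGR motif GCGNGGGCG and the amino acid response element TGATGNAA.
PGF, chr14:74955765-74956014, minus strand: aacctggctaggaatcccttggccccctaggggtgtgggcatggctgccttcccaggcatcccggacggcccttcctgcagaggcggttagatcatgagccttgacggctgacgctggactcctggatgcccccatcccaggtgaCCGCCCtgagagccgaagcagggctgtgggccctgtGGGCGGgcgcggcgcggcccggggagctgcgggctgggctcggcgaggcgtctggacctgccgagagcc
VEGFB, chr11:64234334-64234583, plus strand: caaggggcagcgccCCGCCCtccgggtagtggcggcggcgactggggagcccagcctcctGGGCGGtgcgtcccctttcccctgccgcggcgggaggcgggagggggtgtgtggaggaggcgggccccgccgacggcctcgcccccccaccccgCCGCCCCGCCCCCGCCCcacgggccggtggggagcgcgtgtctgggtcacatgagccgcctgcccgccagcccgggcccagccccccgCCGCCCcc
VEGFD, chrX:15384414-15384663, minus strand: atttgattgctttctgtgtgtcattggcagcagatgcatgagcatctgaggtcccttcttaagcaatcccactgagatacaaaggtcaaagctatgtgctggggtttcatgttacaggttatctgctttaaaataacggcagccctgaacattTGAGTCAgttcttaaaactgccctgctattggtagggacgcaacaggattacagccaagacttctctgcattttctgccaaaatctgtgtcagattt
KDR, chr4:55125596-55125845, minus strand: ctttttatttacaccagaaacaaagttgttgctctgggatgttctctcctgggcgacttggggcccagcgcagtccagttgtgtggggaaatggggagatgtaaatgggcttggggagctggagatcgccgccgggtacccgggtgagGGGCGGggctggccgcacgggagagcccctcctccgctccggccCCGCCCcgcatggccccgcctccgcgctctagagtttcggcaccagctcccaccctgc
The GC box, the site bound by Sp1-type factors, occurred 6 times in the VEGFB window, 2 times each in the PGF and KDR windows shown, and not in that of VEGFD. It was present in 7 of the 8 member windows and in 42.6% of all 35116 windows of this length. VEGFB also held 1 EGR match (8.41% of all windows), which lies over GC boxes, and VEGFD held 1 AP-1 match (6.57%). No member window held the hypoxia core (18.5%) or the amino acid response element (3.14%). GC content ran from 43.2% in VEGFD to 82.8% in VEGFB. These are matches of letters only, and they do not separate members that rose from those that fell: PGF, KDR and VEGFB all held GC boxes.

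Among the receptor kinases, KDR and FLT4 could be measured, KDR alone of them differed from control past 1.5-fold, and its direction differed between agents. The KDR probe read 115, 505 and 37.9, and was not well above background with OA. KDR was 4.84-fold higher with cantharidin than in control (log2 difference 2.27, SD 0.24) and at least 2.36-fold lower with OA than in control. Between the agents KDR was at least 11.4-fold lower with OA. With the normexp background correction KDR under OA fell by 0.52 on the log2 scale, less than 1.5-fold, and the difference between agents was -2.37. The study took KDR and VEGFD forward among genes raised by cantharidin, so that direction is not independent evidence either. It measured both by real-time PCR as well, which these arrays do not cover.

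FLT1 could not be measured. Its intensities of 24.8, 15.3 and 30.2 were not well above background on any array, so no fold is given for the receptor that VEGFB and PGF bind. FLT4 was measured on each array and varied little, with 93.5, 79.7 and 121. The FLT4 log2 differences were -0.09 under cantharidin (SD 0.29) and 0.11 under OA (SD 0.28), both smaller than the spot noise, and between the agents it was 0.20, past 1.5-fold only without scaling (0.60). FLT4 signals stood 2.67, 3.64 and 2.08 times over the dimmest probe that passed detection on their arrays, so a change there would have been read with little precision.

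KDR is chiefly an endothelial gene, so markers of cell types were read as well. All 7 epithelial markers listed were well above background in control cells, and 6 of 7 with either agent, CDH1 being the exception. Of 12 endothelial markers, any probe of 8 was well above background in control, of 8 with cantharidin and of 7 with OA, while TEK, CLDN5 and EMCN were not on any array and PECAM1 was in control only, by 1 of its 3 probes (45.0, 8.73 and 31.6). The summed scaled signal of the endothelial list, over brightest probes, was 4.56, 6.47 and 3.40. Under cantharidin 4 of the 8 endothelial markers compared were higher and 2 lower, and under OA 2 of 7 were higher and 1 lower. Over all genes 26.3% were higher and 34% lower under cantharidin, and 28% and 27% under OA. ROBO4, a guidance receptor of endothelium, moved with KDR under cantharidin, with intensities of 57.6, 1184 and 150, a rise of 22.6-fold with cantharidin and 2.18-fold with OA. The vessel receptor gene TIE1 (19.2, 183 and 38.7) was at least 5.76-fold higher with cantharidin. TIE1 was not well above background in control or with OA, so no fold is given between them. The study picked TIE1 from these same arrays as raised by both agents, and also measured it by real-time PCR. With cantharidin MMRN2, an endothelial matrix gene, was 2.55-fold higher and ESAM, a junction gene, was 1.57-fold higher. Others of the list went the other way: VWF, von Willebrand factor (1814, 958 and 1090), and PLVAP, a diaphragm protein of capillaries, were each 1.72-fold lower with cantharidin, while ERG and CDH5 had log2 differences of -0.44 and -0.11. All of these were named after their values were seen, and their part in the KDR result was not tested. Fibroblast markers were well above background for 4, 4 and 3 of 7 genes, and leukocyte markers for 5 of 5 on each array with a summed signal of 7.98, 9.04 and 26.5. Over all 19699 genes, the brightest probe was well above background for 15667, 15877 and 14927. Most genes thus passed detection, so the marker counts do not settle which cell types were present.

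Both neuropilins were lower with both agents, and lower with cantharidin than with OA. NRP1, which strengthens VEGFA binding to KDR, had intensities of 1190, 71.7 and 217. NRP1 was 15.1-fold lower with cantharidin (log2 difference -3.91, SD 0.22) and 6.53-fold lower with OA (-2.71, SD 0.21). Only 0.744% of genes with a value lay as far below control under cantharidin, where NRP1 ranked 123 of 16534. A second NRP1 probe, which was the brighter in control, read 1883, 40.8 and 75.8. This was a drop of 41.9-fold with cantharidin (SD 0.49) and 29.6-fold with OA (SD 0.21). Its treated signals stood 1.87 and 1.31 times over the dimmest probe that passed detection on their arrays. Those of the first probe stood 3.27 and 3.75 times over it, so the size of these drops was read near background. The probes agreed in direction against control, but the difference between agents was 2.31-fold on the brighter probe and 1.41-fold on the second. Under cantharidin the brighter probe fell by 2.94 on the log2 scale with the normexp correction, and the median over the probes fell by 4.65. Under OA that median fell by 3.80.

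NRP2, the co-receptor of VEGFC, was read by 3 probes. The brightest had intensities of 1943, 302 and 1478, which was 5.85-fold lower with cantharidin (log2 difference -2.55, SD 0.15) and 1.57-fold lower with OA (-0.65, SD 0.098). The second read 206, 24.2 and 210, and the third 143, 16.1 and 108, both not well above background with cantharidin. With cantharidin the second read 7.71-fold lower than in control (SD 0.50), taken from its own undetected signal and so not a minimum. The third was at least 5.95-fold lower, so all 3 probes fell. With OA the second probe differed from control by 1.17-fold and the third was 1.59-fold lower. The OA difference of NRP2 was near the threshold, and its brightest probe fell by 0.39 without scaling, by 0.57 with scaling to probes detected on all arrays and by 0.58 in the deposited table, all under 1.5-fold. NRP2 was 3.73-fold higher with OA than with cantharidin on the brightest probe and at least 3.75-fold on the third. On the second it read 6.59-fold higher (SD 0.53), again not a minimum.

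**Figure D2:**
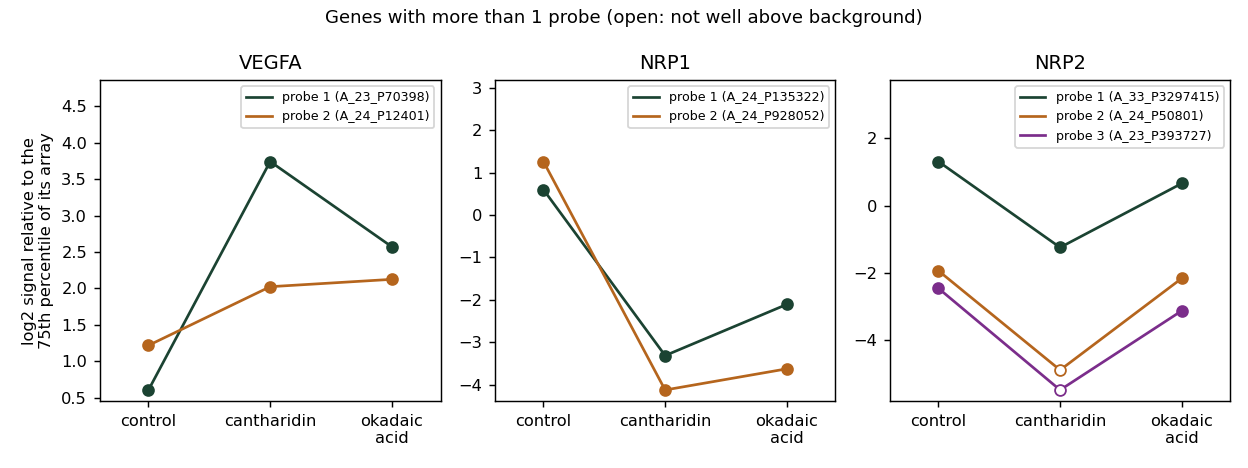
Signal of each probe of VEGFA, NRP1 and NRP2 on the 3 arrays, as log2 relative to the 75th percentile of the array, with open circles for signals not well above background. The VEGFA probes rose by different amounts under cantharidin (8.79-fold and 1.75-fold), whereas every NRP1 and NRP2 probe fell under cantharidin.

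Set directly against each other, the agents differed in 7 of the 9 genes that could be compared. OA was higher for 4 (PGF, VEGFC, NRP1 and NRP2) and lower for 3 (VEGFA, VEGFD and KDR), with VEGFB and FLT4 under 1.5-fold. These counts rest on the brightest probes. On their second probes VEGFA and NRP1 differed between the agents by 1.07-fold and 1.41-fold, both under 1.5-fold. Over all 16200 genes compared, 29.4% were higher with OA and 20.5% lower, 49.9% in either direction. The median was 0.27 for the members and 0.14 for all genes. On their brightest probes VEGFC, NRP1 and NRP2 shared 1 pattern, lowest with cantharidin and intermediate with OA. Without scaling, 78.9% of the genes called between the agents were higher with OA, beside 59% as scaled here and 48.9% with scaling to the median, so a small difference in favour of OA depends on the scaling. The 4 members higher with OA had log2 differences of 0.63 for PGF, 1.46 for VEGFC, 1.21 for NRP1 and 1.90 for NRP2, and PGF alone went under 1.5-fold in any of the scalings.

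**Figure D3:**
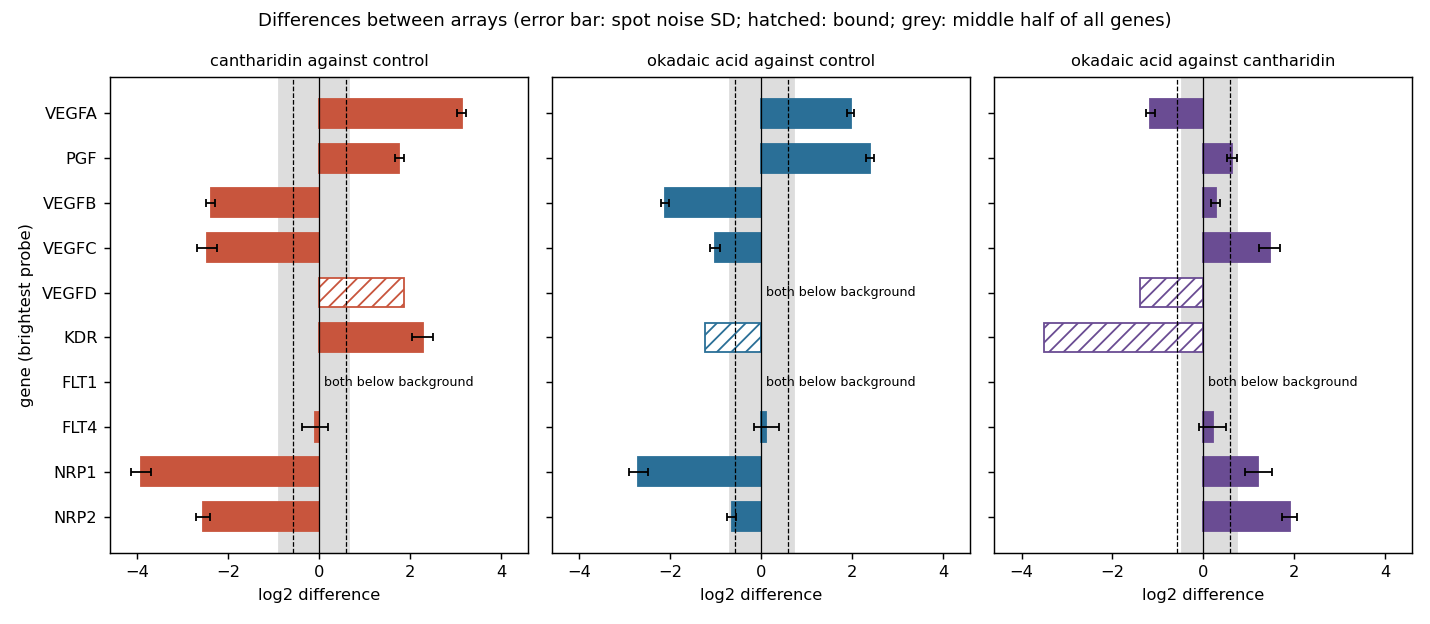
Log2 difference of each member for each pair of arrays, from its brightest probe, with the spot noise SD as error bar. Hatched bars are bounds where 1 array was not well above background, dashed lines mark 1.5-fold, and the grey band is the interquartile range of all genes. KDR has bars of opposite direction under the agents, and 8 of the 9 bars under cantharidin pass the dashed lines.

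Class 3 semaphorins and plexins share the neuropilins as receptor components. Of the 12 listed, 8 could be compared, with 2 higher and 4 lower under cantharidin (median -0.53) and 3 higher and 4 lower under OA (median -0.74). For this list and each list below, the shares over all genes were 26.3% higher and 34% lower under cantharidin (median -0.17). Under OA they were 28% and 27% (median 0.02). A list count near these shares is not in itself a result about the list. SEMA3C, a guidance ligand, was lower with both agents (2322, 284 and 505), by 7.43-fold and 5.49-fold. PLXND1, the receptor of SEMA3E, was also lower (2938, 588 and 1239), by 4.54-fold and 2.83-fold, in the direction of the neuropilins. SEMA3B, a semaphorin known as a tumour suppressor, went the other way (130, 620 and 1627) with rises of 5.25-fold and 10.5-fold, and PLXNA3 was 4.77-fold higher with cantharidin and 1.54-fold higher with OA.

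Downstream, 42 of 45 genes for signalling from VEGF receptors could be compared. Under cantharidin 15 were higher and 9 lower (median 0.29), and under OA 9 were higher and 8 lower (median 0.06). PTGS2, the inducible cyclooxygenase, was higher with both agents (53.0, 774 and 789), by 16.1-fold and 12.5-fold. The calcineurin-responsive factor NFATC1 was 10.7-fold higher with cantharidin and 1.40-fold with OA on its brightest probe, but its other probe was 3.53-fold and 8.22-fold higher, the agents in the opposite order. CASP9, an initiator caspase that AKT inhibits, was 3.28-fold and 7.99-fold higher. SPHK1, a kinase that makes sphingosine-1-phosphate, was 4.49-fold and 2.11-fold higher, and it is among the genes the study picked from these arrays.

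Of 12 genes compared that tune receptor binding and turnover, 2 were higher and 5 lower under cantharidin (median -0.41), and 3 were higher and 6 lower under OA (median -0.45). PTPRJ, a phosphatase that acts on KDR, had intensities of 1828, 81.0 and 540, a drop of 20.5-fold with cantharidin and 4.04-fold with OA, and a dim second probe was at least 1.56-fold lower with cantharidin. SDC1, a heparan sulfate proteoglycan, was lower by 5.48-fold and 2.30-fold. The ubiquitin ligase CBL, which drives receptor degradation, was higher by 5.60-fold and 1.82-fold, and DAB2, an endocytic adaptor, by 3.09-fold and 4.64-fold.

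Of 24 genes that control VEGFA transcription or VEGFA mRNA, 6 were higher and 4 lower with cantharidin (median 0.04), and 10 were higher and 3 lower with OA (median 0.44). EGR1, an immediate early factor, had the widest differences of the list, with intensities of 1003, 78135 and 104523, or rises of 85.8-fold with cantharidin and 87.3-fold with OA. FOS, a subunit of AP-1, was 2.85-fold and 17.7-fold higher. VHL, the ubiquitin ligase subunit that targets hypoxia-inducible factors, was 7.91-fold and 6.12-fold higher, and ZFP36L2, which promotes decay of AU-rich mRNAs, 6.61-fold and 21.1-fold. The brightest HIF1A probe differed by under 1.5-fold with either agent (1033, 929 and 1390; log2 differences of -0.02 and 0.17), but its second probe (214, 111 and 81.6) was 1.75-fold lower with cantharidin and 3.13-fold lower with OA.

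Ligand processing genes cleave VEGFC and VEGFD or release matrix-held VEGFA. Of those compared, 2 of 11 were higher and 3 lower with cantharidin (median 0.30), and 4 of 12 were higher and 3 lower with OA (median -0.20). ADAMTS1, a secreted protease that can bind VEGFA, was apart between agents (106, 119 and 10754), being 85.0-fold higher with OA and 1.23-fold with cantharidin. Its second probe was 39.8-fold higher with OA and 1.63-fold lower with cantharidin. MMP9, a gelatinase, was 2.17-fold and 5.35-fold higher. FURIN, a proprotein convertase that cleaves VEGFC, was 2.74-fold lower with cantharidin and at least 5.61-fold lower with OA, and the lysosomal protease CTSD was lower by 2.24-fold and 2.91-fold.

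Genes listed beforehand as antiangiogenic or VEGF-opposing, a role not measured here, were lower in 6 and higher in 1 of 12 compared with cantharidin (median -0.64). With OA they were lower in 3 and higher in 2 (median -0.21). Over all genes 34% were lower and 26.3% higher with cantharidin (median -0.17), and 27% and 28% with OA (median 0.02). COL18A1, whose collagen carries endostatin, was lower by 6.59-fold and 9.97-fold (126818, 17489 and 15188). ADGRB1, a brain angiogenesis inhibitor, was instead 3.14-fold and 1.61-fold higher. The study picked COL18A1 and ADGRB1 from these same arrays. It counted COL18A1 as antiangiogenic but ADGRB1, under the name BAI1, among proangiogenic genes. SPARC, a matrix protein that binds VEGFA, was 2.00-fold lower with cantharidin and differed by 1.36-fold with OA. VASH1, an inhibitor made by endothelium, was 3.08-fold higher with OA and differed by 1.29-fold with cantharidin.

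Other angiogenic ligands and receptors were higher in 1 and lower in 4 of 14 with cantharidin (median -0.39), and higher in 5 and lower in 2 with OA (median 0.15). ADM, the vasodilator adrenomedullin, was 6.87-fold higher with OA and differed by 1.19-fold with cantharidin (17888, 13714 and 146611). JAG1, a Notch ligand, was lower by 2.26-fold and 1.55-fold. EDN1 (endothelin-1) was 2.42-fold higher with OA and EDNRA, its receptor, 2.56-fold and 2.10-fold lower, but the second probe of EDN1 differed by a log2 of 0.27 with OA and that of EDNRA, below background in control, was at least 1.75-fold higher with OA.

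Genes of the hypoxia response, of which VEGFA is a classical member, were higher in 5 and lower in 3 of 15 with cantharidin (median 0.01), and higher in 8 and lower in 2 with OA (median 1.09). NDRG1, a stress-responsive gene, was 11.2-fold and 3.08-fold higher. LOX, the collagen cross-linking oxidase, was 11.3-fold higher with OA and differed by 1.19-fold with cantharidin. PFKFB3, a regulator of glycolysis, was higher by 3.69-fold and 6.92-fold on its brightest probe and by 1.63-fold and 3.42-fold on the second. The 3 lower with cantharidin were CA9 (at least 5.17-fold), MXI1 (3.51-fold) and VLDLR (3.21-fold). CA9 was also at least 2.56-fold lower with OA. VLDLR was 1.63-fold lower with OA on its brightest probe, but at least 2.69-fold higher on its second. PDK1, SLC2A1, P4HA1 and PFKFB4 differed by under 1.5-fold with either agent.

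**Figure D4:**
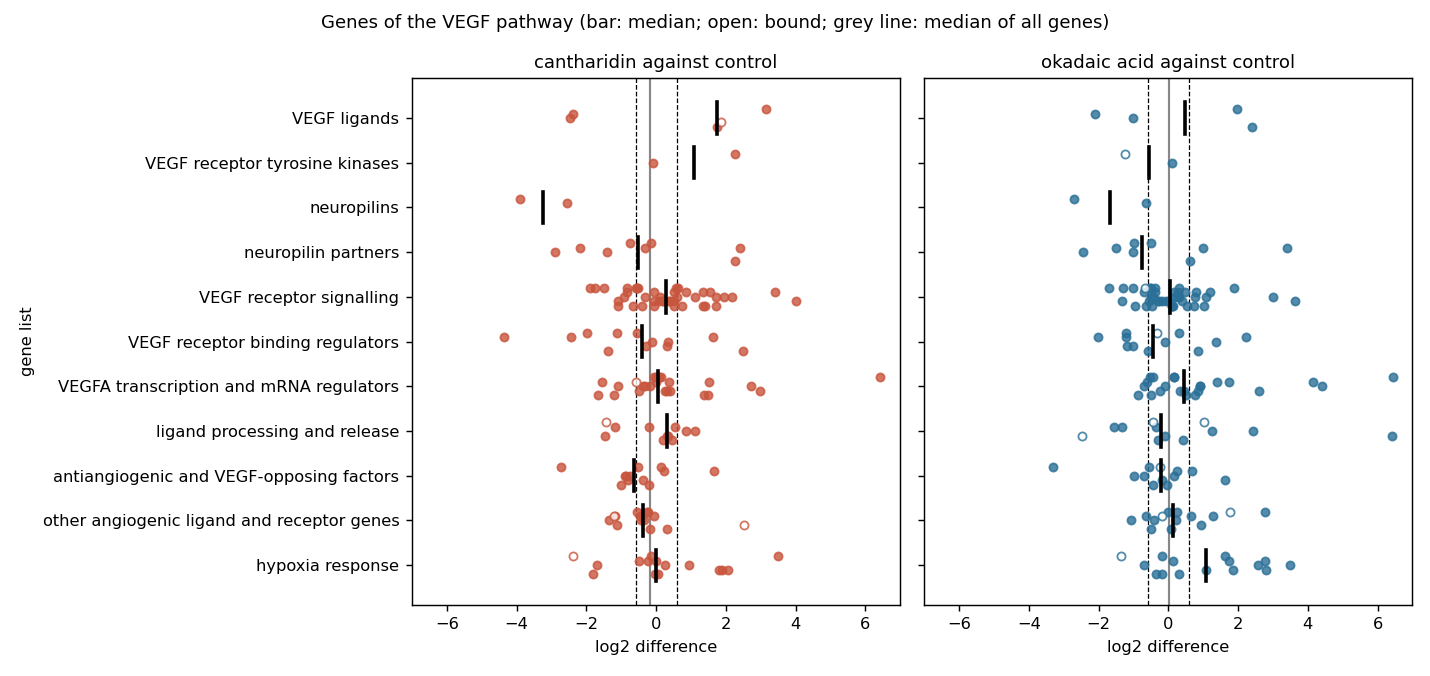
Log2 difference of each gene of the VEGF pathway lists against control, for cantharidin and OA, with a black bar at the median of each list, open circles for bounds, dashed lines at 1.5-fold and a grey line at the median of all genes. The medians of the hypoxia list were 0.01 with cantharidin and 1.09 with OA.

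Of 14221 genes well above background on all arrays, those nearest to VEGFA in their pair of differences against control were CLN8 (3.18 and 2.00), TSC1 (3.16 and 2.04) and ANKMY1 (3.05 and 2.01), at distances of 0.06, 0.08 and 0.10. In all 19 genes lay within 0.25 of the brighter VEGFA probe. With only 3 arrays this is a likeness of a pair of values and no more.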

How the data were processed

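Total RNA of PANC-1 cells was labelled with Cy3 and hybridised to 3 Agilent 1-colour arrays, grouped by sample title. The authors deposited spot intensity values from Feature Extraction 11.0.1.1, background-subtracted and detrended within each array and not scaled between arrays, with other flags for outliers, saturation and signal well above background. A second deposited file held log2 values already normalized by the authors, made by steps not given in the sources used here, whose columns correlated with their own arrays at r of at least 0.998. It served as an alternative.

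Log2 intensity was averaged over unflagged spots, and the 75th percentile of the array was subtracted, which left 34041 probes. Transcript accessions, without version, were matched to RefSeq of GRCh38.p14, so 25705 probes were named (19699 genes). The probe annotation was hg19, so no gene coordinates are printed, and only the promoter windows carry GRCh38.p14 positions. The probe with the highest mean log2 signal stood for a gene, also in counts of lists. Genes detected (well above background) on either array of a pair were compared, and called at 1.5-fold. A dim signal was raised to the higher of itself and the lowest signal well above background on its array (35.0, 21.9 and 58.0 for control, cantharidin and OA), and the fold is then "at least". Where the dim signal itself was the higher, as for the second NRP2 probe with cantharidin, the fold is the measured one and not a minimum. No fold is given where both arrays were dim. No test across arrays was possible with 1 array per group, whose number limits the precision. Spot noise came from 999 probes with 10 spots. No spot was saturated.

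Members, lists, named genes and motifs were chosen with earlier results of these data known. Named genes were all members, up to 4 per list with the largest difference among genes well above background on both arrays, and the 3 nearest to VEGFA; other genes were chosen after their values were seen. The 11 alternatives were normexp (offset 50, median spot and background intensity), scaling to the median, to the 75th percentile of probes detected on all arrays, quantile normalization, no scaling, the measured difference in place of the bound, no filter, detection on all arrays, the deposited table, a 2-fold threshold and the median over probes. The counting was tested on simulated data with changes planted in bright probes only. That test did not cover changes that take a signal below background, where folds are bounds. Software was limma 3.58.1 in R 4.3.3, and in Python 3.11.15 the packages pandas 2.3.3, numpy 2.4.6 and matplotlib 3.10.9.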

Additional observations from a re-analysis of the deposited data

Results flagged for a closer look

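KDR stood out because its differences under the agents had opposite directions: 2.27 on the log2 scale with cantharidin against control, and -1.24 with OA against control, the latter a bound since KDR was not well above background with OA. With the normexp background correction KDR with OA was at -0.52, under 1.5-fold. The OA difference was past 1.5-fold under 10 of the 11 settings that gave a value, the main one among them. KDR has 1 probe, so the median over probes and the 2-fold threshold leave its value as it is and are no check of it. Both use the same control array, and the difference between these effects was not tested, with 1 array per group.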

How the results depend on the processing

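No paired analysis was possible because each group had 1 array, and no replicate could be left out. The numbers of members higher and lower stayed within 1.5 times of those given under 10 of the 11 alternatives. When detection was required on all 3 arrays, KDR and VEGFD dropped out, which left 2 members higher with cantharidin in place of 4 and 1 lower with OA than with cantharidin in place of 3. The median of the semaphorin and plexin list with OA turned from -0.74 to 0.42 when dim genes were kept, with 12 genes in place of 8. Over all genes between the agents, the numbers higher and lower with OA were 4765 and 3317, and they became 7465 and 1991 without scaling, which moved the median of all genes from 0.14 to 0.55 (from -0.17 to -0.31 for cantharidin and from 0.02 to 0.29 for OA against control). With normexp 3143 were higher, and 7181 with no filter. The 2-fold threshold left 3595 lower with cantharidin (5667 at 1.5-fold), 2959 higher and 2814 lower with OA (4534 and 4359), and 2676 higher and 1938 lower between the agents. Of the counts of pathway lists, 471 stayed within 1.5 times of their value and 57 did not, 21 of them at the 2-fold threshold. Of the single-member values, 223 moved by less than the spot noise and 58 by more, none of them changing direction past 1.5-fold. The 223 include 26 at the 2-fold threshold, which cannot move a value. For members with 1 probe the median over probes cannot move it either. The cause of these shifts was not tested. The signal over background limits KDR, VEGFD, FLT1 and FLT4. It also limits NRP1 with either agent and the dimmer NRP2 probes with cantharidin, whose signals lay near background or were not well above it.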
